A study of Mus musculus with 15 samples.

Results

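The expression of 5 genes for transcription factors of the TH17 lineage, Rora, Ahr, Maf, Irf4 and Runx1, was followed in 15 poly(A) RNA-seq libraries of mouse CD4 T cells. They were chosen by symbol, each symbol matched 1 Ensembl gene ID, and they make up 5 of the 55421 IDs in the table. Naive CD4 T cells from spleen and lymph node were activated with antibodies against CD3 and CD28, with IFNγ and IL-4 neutralised, and harvested on day 5. TH17 cultures received TGFβ at 2.5 ng/ml with IL-6, IL-1β and IL-23 at 10 ng/ml each, and Treg cultures received IL-2 at 200 U/ml and TGFβ at 0.5 ng/ml, a dose the protocol says can differ where indicated. There were 5 groups of 3 libraries. Wild-type TH17 cultures in DMSO, wild-type TH17 cultures in Srci1, wild-type Treg cultures in DMSO and wild-type Treg cultures in Srci1 were accompanied by TH17 cultures in DMSO from STAT3-fl/fl CD4-cre mice. The Cre of those mice is driven by Cd4, so deletion begins during T cell development in the thymus and is not confined to the culture. Srci1 is a compound known here by its code name only. It went into the cultures 24 h after the cells were plated, at a dose not stated in the labels used here. The labels do not say whether the 3 libraries of a group came from separate animals or cultures, and p-values then measure only the spread between these libraries.

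TH17 cells are the helper T cells that secrete IL-17, and their identity is set by a network of transcription factors. IRF4, induced by the T cell receptor, works together with BATF and other AP-1 proteins to open chromatin early, and STAT3, activated by IL-6 and IL-23, acts on many of the same genes. MAF, AHR, RORα and RUNX1 join this network. MAF is known for driving IL-10 and IL-21, AHR is a receptor for small ligands that drives IL-22 and its own set of detoxifying enzymes, RORα is an orphan nuclear receptor that shares targets with the TH17 master regulator and with the circadian clock, and RUNX1 can bind either that regulator or FOXP3, the factor that defines Treg cells.

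On GRCm38, with GENCODE release M21, Rora (ENSMUSG00000032238.17) lies on the plus strand of chromosome 9 from 68653786 to 69388246 and Irf4 (ENSMUSG00000021356.10) on the plus strand of chromosome 13 from 30749226 to 30766976. Ahr (ENSMUSG00000019256.17) lies on the minus strand of chromosome 12 from 35497974 to 35535038, Maf (ENSMUSG00000055435.6) on the minus strand of chromosome 8 from 115682942 to 115707794, and Runx1 (ENSMUSG00000022952.17) on the minus strand of chromosome 16 from 92601466 to 92826149. The sequence just upstream of the start was at hand in RefSeq (GRCm38.p6) for 3 of the 5, Rora, Irf4 and Runx1, and Runx1 had 2 starts, a distal and a proximal. The promoters of these 3 genes were searched on both strands, over the 250 bases before each start. The search was for the letters that each factor of the network is known to bind. The bases shown are those of each window that lie upstream of every exon of the gene, at chr9:68653536-68653785 on the plus strand for Rora, chr13:30748983-30749225 on the plus strand for Irf4, chr16:92826150-92826324 on the minus strand for the distal start of Runx1 and chr16:92697330-92697579 on the minus strand for its proximal start. Each is written 5′ to 3′ along its gene, and capitals mark the AHR core, GCGTG or its reverse complement CACGC.
Rora: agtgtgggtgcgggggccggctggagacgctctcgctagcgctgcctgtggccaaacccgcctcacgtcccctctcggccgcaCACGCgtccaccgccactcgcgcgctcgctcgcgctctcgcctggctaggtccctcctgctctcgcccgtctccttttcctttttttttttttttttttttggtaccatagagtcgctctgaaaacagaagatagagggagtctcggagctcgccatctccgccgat
Irf4: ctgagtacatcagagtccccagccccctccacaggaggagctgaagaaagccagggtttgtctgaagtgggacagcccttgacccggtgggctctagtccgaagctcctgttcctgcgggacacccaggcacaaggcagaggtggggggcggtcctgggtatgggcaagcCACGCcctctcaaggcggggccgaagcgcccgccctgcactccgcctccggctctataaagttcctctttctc
Runx1 distal: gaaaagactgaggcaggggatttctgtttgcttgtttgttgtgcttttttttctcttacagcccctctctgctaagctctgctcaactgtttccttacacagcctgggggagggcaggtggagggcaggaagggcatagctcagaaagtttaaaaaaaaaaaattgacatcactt
Runx1 proximal: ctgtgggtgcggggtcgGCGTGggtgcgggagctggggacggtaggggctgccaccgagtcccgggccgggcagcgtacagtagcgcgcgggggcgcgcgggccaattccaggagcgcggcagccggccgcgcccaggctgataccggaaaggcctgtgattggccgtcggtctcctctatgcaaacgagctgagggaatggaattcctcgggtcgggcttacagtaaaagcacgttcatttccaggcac

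The AHR core was present once in Rora, with its first base 167 bases before the start, once in Irf4, 80 bases before, and once at the proximal start of Runx1, 233 bases before. It was not found at the distal start. The core is short, and 28.2% of 32851 RefSeq promoter windows of this length hold at least 1. None of the 4 windows held the STAT palindrome TTCNNNGAA, present in 7.02% of all windows, the RUNX letters TGTGGT (14.0%), the ROR letters AGGTCA (14.0%), the AP-1 letters TGANTCA (6.75%), the IRF element of a pair of GAAA runs with 2 bases between them (2.98%) or the MAF letters TGCTGA (16.1%). No motif searched contains another, but some share letters at their ends, such as TGA in AP-1 and MAF, so their matches could overlap. These are matches of letters only, and the windows leave out enhancers. The values below are per gene and do not separate the 2 starts of Runx1.

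TPM is the length-corrected portion of a library's transcripts that a gene takes, so levels can be compared between genes. Differences were tested with limma on log2(TPM + 1) over 12800 genes, and a gene counts as called where its p, adjusted by Benjamini and Hochberg's method, was under 0.05. The added 1 understates the change of low genes. Depth cannot be read from TPM. Libraries of the same group correlated at 0.977 to 0.986 over genes and libraries of different groups at 0.902 to 0.97. Stat3 itself was at 30.74 to 38.44 TPM in the knockout libraries and at 99.78 to 132.94 TPM in the wild-type TH17 DMSO libraries, 3.53-fold lower (log2 difference −1.78, SE 0.1, limma adjusted p = 3.75e-09). Il17a had a mean of 1337.9 TPM in wild-type TH17 DMSO libraries and 0.0267 TPM in Treg DMSO libraries, and Foxp3 had 11.7 and 129.7 TPM, so in DMSO each wild-type culture type held its defining transcripts. Foxp3 did not set Treg DMSO apart from the other TH17 groups, since its mean was higher in TH17 Srci1 and in the knockout, as given below. The 9 CD4 T cell genes summed to between 2801 and 3790.8 TPM in every library, and none was at 0. Ribosomal protein genes took 28.4% ± 1.97 of TPM in TH17 DMSO, 22.1% ± 0.587 in TH17 Srci1, 28.7% ± 1.22 in the knockout, 25.0% ± 0.167 in Treg DMSO and 20.9% ± 0.491 in Treg Srci1 (SD, n = 3). The comparisons were also run with TPM rescaled after leaving out the genes of ribosomal proteins and mitochondria, named rescaling below. What caused the shift was not tested. The median gene was 0.213 higher with Srci1 in TH17 cultures, 0.129 higher in the knockout, 0.114 higher with Srci1 in Treg cultures and 0.181 higher in Treg than in TH17 cultures on the log2 scale. In bulk RNA, fewer cells that express a gene and less RNA of it per cell cannot be told apart.

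The 5 genes differed widely in level and in how far they moved. Irf4 was the most abundant and ranged 3.6-fold between its highest and lowest group mean. Maf ranged 37.0-fold and Ahr 36.1-fold, Rora 3.9-fold and Runx1 2.89-fold. In wild-type TH17 cultures the order was Irf4 (270.7 ± 50.2 TPM), Maf (79.5 ± 5.56 TPM), Runx1 (17.7 ± 0.936 TPM), Rora (6.78 ± 2.48 TPM) and Ahr (5.77 ± 1.1 TPM), each SD over n = 3. The levels of Rora and Ahr overlapped between libraries.

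**Figure D1:**
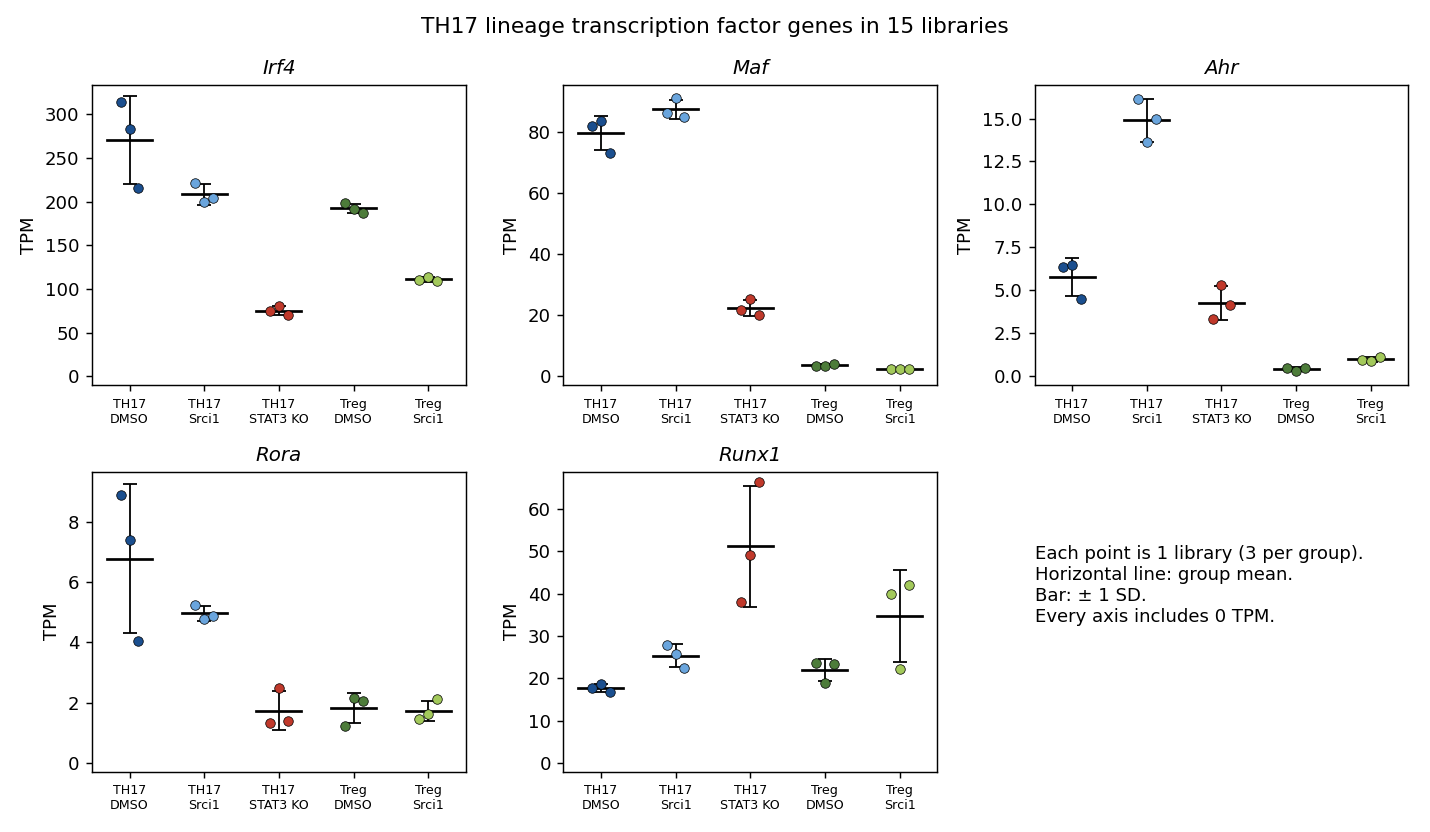
TPM of each gene (vertical axis, linear) in each of the 15 libraries, by group (horizontal axis). Points are libraries, lines are group means and bars are ± 1 SD (n = 3). Irf4, Maf and Rora stand lower in the STAT3 knockout than in wild-type TH17 cultures and Runx1 stands higher. Ahr stands highest with Srci1 in TH17 cultures, at 13.64 to 16.16 TPM.

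Without STAT3, Irf4, Maf and Rora were lower, Runx1 was higher, and Ahr fell short of the threshold. Of the 5 genes, 1 was higher, 3 were lower and 1 was not called, where 49.7% of all genes tested were called (30.9% higher and 18.9% lower). Srci1 in TH17 cultures gave another set of values. Ahr was higher, Irf4 was slightly lower, and Rora, Maf and Runx1 were not called, so 1 of 5 was higher and 1 lower where 40.9% of all genes were called (33.8% higher and 7.08% lower). In Treg cultures with Srci1, Maf and Irf4 were lower, Rora and Runx1 were not called, and Ahr was called higher, where 27.2% of genes were called (17.1% higher and 10% lower). That call of Ahr, which passed the filter on low values only through the TH17 groups, was lost in each of the 6 fits with 1 library left out, with no filter and with the replicate number as a block. Between the culture types in DMSO, 4 of the 5 were lower in Treg than in TH17 cultures and Runx1 was not called, where 44.8% of genes were called (32.3% higher and 12.5% lower). In the difference between the Srci1 effects in TH17 and Treg cultures, Ahr and Maf, 2 of the 5, were called higher, where 14.2% of all genes were called (11.3% higher and 2.95% lower). The call of Maf was kept in every alternative run, while that of Ahr was lost with a pseudocount of 0.1, with no filter, after rescaling without the genes of ribosomal proteins and mitochondria, with the block and in 9 of 12 fits with 1 library left out. The comparisons with knockout and with Srci1 in TH17 cultures share their DMSO libraries, so their values are given side by side and not correlated. For the order of levels, the knockout was also set against Treg DMSO and Treg Srci1 libraries, where 42% and 47.4% of all genes were called, and TH17 Srci1 against Treg DMSO and Treg Srci1 libraries, where 35.2% and 36.1% were called. The counts for lists of genes below are to be read beside the shares of all genes in the same comparison. No list was tested as a set.

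**Figure D2:**
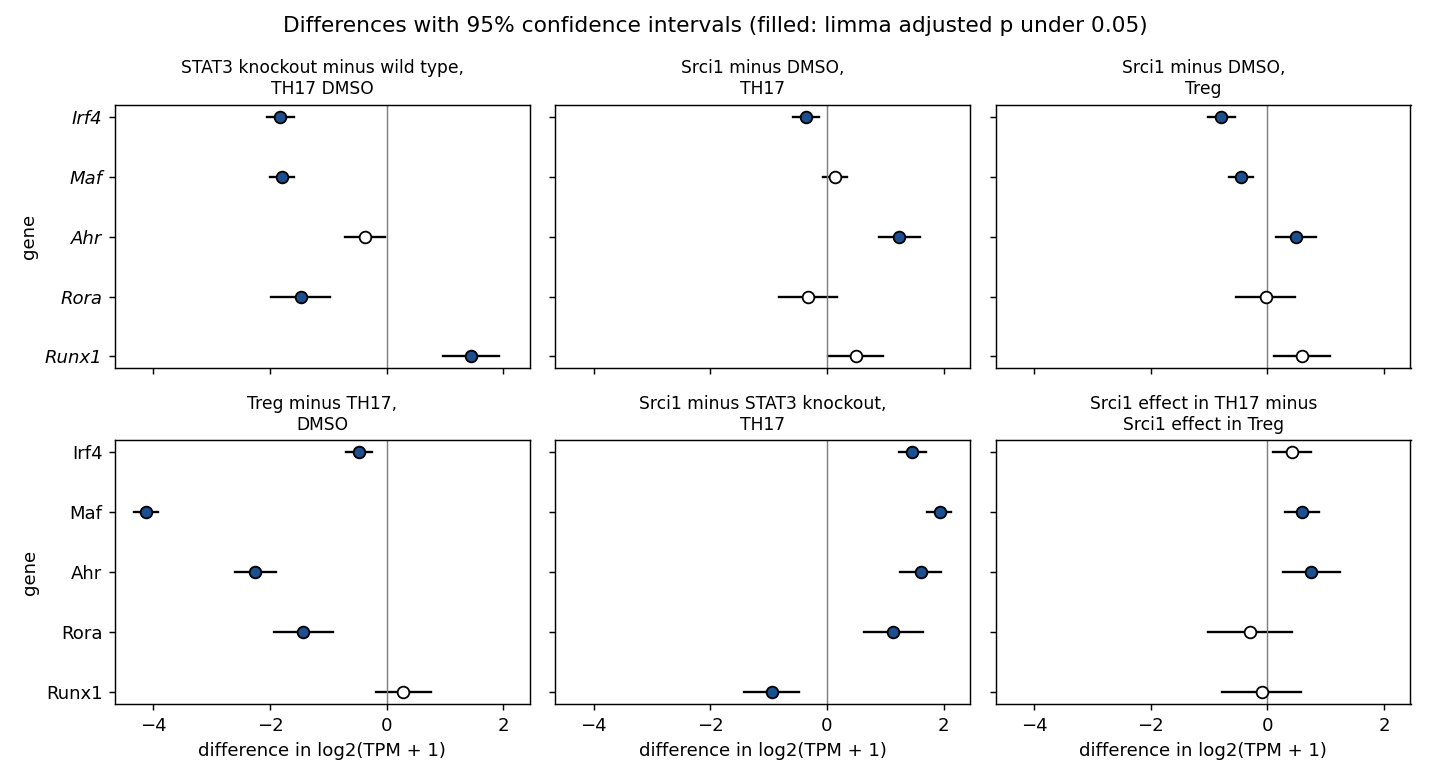
Difference in log2(TPM + 1) for each gene (horizontal axis) with its 95% confidence interval, in 6 comparisons. Filled points have a limma adjusted p under 0.05. In the STAT3 knockout Irf4, Maf and Rora lie to the left of 0 at −1.82, −1.79 and −1.47 and Runx1 to the right at 1.45. With Srci1 in TH17 cultures the point farthest from 0 is Ahr at 1.24.

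Irf4 encodes the interferon regulatory factor that T cell receptor signals induce in proportion to their strength. It stood at 313.87, 282.76 and 215.61 TPM in the 3 wild-type TH17 DMSO libraries and at 75.2, 80.86 and 69.62 TPM in the knockout. The groups lay far apart, and Irf4 was 3.6-fold lower without STAT3 (log2 difference −1.82, SE 0.11, limma adjusted p = 5.75e-09). With Srci1, the TH17 libraries held 221.74, 199.31 and 204.01 TPM of Irf4. The highest of these lay above the lowest DMSO library, which was replicate 3. The 1.3-fold lower mean was called (log2 difference −0.36, 95% confidence interval −0.59 to −0.13, limma adjusted p = 0.0154), and the call was lost without TH17 DMSO replicate 1 (adjusted p = 0.0613), TH17 DMSO replicate 2 (adjusted p = 0.0541) or TH17 Srci1 replicate 2 (adjusted p = 0.0512), and when only the compared groups entered the model (adjusted p = 0.0676). Under median-of-ratios scaling the difference was −0.63 and called (adjusted p = 1.12e-05).

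In Treg cultures Irf4 was at 197.9, 191.27 and 187.29 TPM in DMSO and at 110.54, 113.95 and 108.74 TPM with Srci1. No library overlapped, and the drop was 1.73-fold (log2 difference −0.79, SE 0.11, limma adjusted p = 0.000113). The difference between this effect and that in TH17 cultures was 0.42 (95% confidence interval 0.1 to 0.75, limma adjusted p = 0.0787) and did not pass the threshold. From the highest mean to the lowest the order was TH17 DMSO, TH17 Srci1, Treg DMSO, Treg Srci1 and the knockout. The difference between the neighbours TH17 Srci1 and Treg DMSO was not called (limma adjusted p = 0.445), although every TH17 Srci1 library lay above every Treg DMSO library. The knockout lay below Treg Srci1 (limma adjusted p = 0.00074).

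Of 8 other interferon regulatory factor genes, 6 were higher in the knockout, where Irf4 was lower, none was lower and 2 were not called, with a median log2 difference of 1.51 against 0.129 for all genes. Irf1, an activator of interferon-responsive genes, was 7.44-fold higher (150.9 against 20.3 TPM, limma adjusted p = 8.38e-12). Irf8, the closest relative of Irf4, was 3.09-fold higher (181.4 against 58.7 TPM, limma adjusted p = 5.13e-10). Irf9, a factor of the interferon response, rose from 19.1 to 45.1 TPM (limma adjusted p = 3.71e-07) and Irf5 from 7.67 to 25.8 TPM (limma adjusted p = 4.33e-07). Irf8 and Irf5 are also expressed in B cells and myeloid cells, whose markers were higher in the knockout. The 7 B cell markers summed to 13.5 to 14.0 TPM there against 2.92 to 3.9 TPM in wild-type TH17 DMSO, and of 4 that could be tested 3 were higher and 1 was lower. The 8 myeloid and dendritic cell markers summed to 13.9 to 15.5 against 4.15 to 7.3 TPM, and both of the 2 that could be tested were higher. Cd14 was at 0 in every knockout library. The part of these cells in the result was not tested.

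In Treg cultures, 7 of the 8 other IRF genes were higher than in TH17 cultures and none was lower (1 was lower under median-of-ratios scaling), with Irf8 at 354.1 against 58.7 TPM (limma adjusted p = 7.45e-12). With Srci1 in Treg cultures, 5 of the 8 fell (3 without Treg DMSO replicate 1) and none rose. Irf8 fell 3.46-fold to 102.3 TPM (limma adjusted p = 3.01e-09) and Irf7 fell from 15.1 to 6.42 TPM (limma adjusted p = 0.00013). In TH17 cultures Srci1 gave 2 higher and 1 lower, or 1 and 1 under median-of-ratios scaling and under rescaling. Irf8 was 1.58-fold lower (limma adjusted p = 2.08e-05) and Irf1 was 1.69-fold higher (limma adjusted p = 3.28e-05). As a share of Irf4 and Irf8 together, Irf4 made up 82.0% ± 2.31 in TH17 DMSO, 84.8% ± 1.93 in TH17 Srci1, 29.3% ± 1.27 in the knockout, 35.2% ± 1.09 in Treg DMSO and 52.1% ± 0.675 in Treg Srci1 (SD, n = 3). The TH17 libraries with STAT3 did not overlap with any other in this share.

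**Figure D3:**
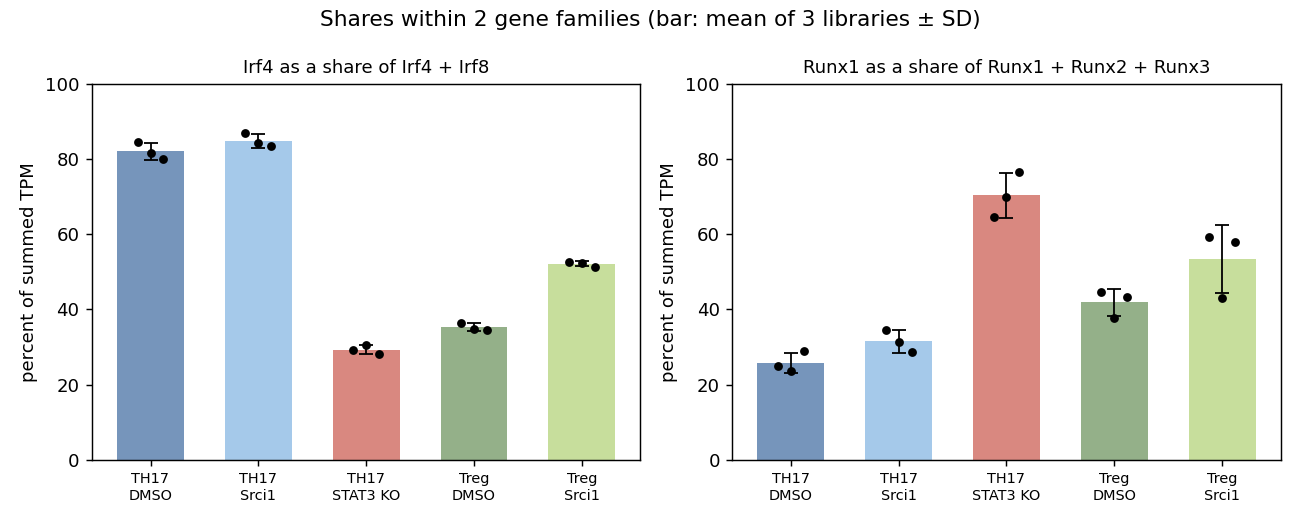
Left, Irf4 as a percentage of the summed TPM of Irf4 and Irf8. Right, Runx1 as a percentage of the summed TPM of Runx1, Runx2 and Runx3. Bars are means ± SD and points are libraries (n = 3 per group). Irf4 takes 79.9% or more in all 6 wild-type TH17 libraries and 28.1% to 30.6% in the knockout. Runx1 takes 23.7% to 28.8% in wild-type TH17 DMSO libraries and 64.6% to 76.5% in the knockout.

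IRF4 binds DNA with the AP-1 proteins and with ETS factors, and of 12 such partner genes 10 were tested. In the knockout 5 were lower and 3 higher, with a median of −0.4. Batf, the partner IRF4 needs at joint sites in TH17 cells, was 2.09-fold lower (102.2 against 214.0 TPM, limma adjusted p = 9.68e-09). Junb, its dimer partner, was 3.09-fold lower (limma adjusted p = 6.67e-10), Fosl2 11.6-fold lower at 5.73 TPM (limma adjusted p = 6.67e-10) and Batf3 33.3-fold lower at 0.747 TPM (limma adjusted p = 8.86e-09). Spib, an ETS factor known from B cells and plasmacytoid dendritic cells, went the other way, from a mean of 0.0733 to 18.4 TPM (limma adjusted p = 2.03e-11). Of the groups compared here, only the knockout had a mean of Spib above the 1 TPM of the filter on low values. With Srci1 in Treg cultures 6 of the 10 were lower and 2 were higher. Fosl2 fell 7.13-fold (limma adjusted p = 6.33e-08) and Junb 1.61-fold (limma adjusted p = 2.2e-05), while Batf rose 1.53-fold (limma adjusted p = 1.62e-05).

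Srci1 in TH17 cultures left 4 of these partners higher and 1 lower, or 3 and 2 under median-of-ratios scaling. Fos, an immediate early AP-1 gene, was 3.19-fold higher (limma adjusted p = 9.75e-07) and Jun 1.67-fold higher (limma adjusted p = 1.98e-06), and Fosl2 was 1.81-fold lower (limma adjusted p = 0.00124). Batf had 261.6 TPM with Srci1 against 214.0 TPM (limma adjusted p = 0.00335), a call lost under median-of-ratios scaling (adjusted p = 0.909) and under rescaling (adjusted p = 0.0639). Between the culture types 4 partners were higher and 3 lower in Treg cells, or 3 and 4 under median-of-ratios scaling, and Batf was 2.7-fold lower there (limma adjusted p = 8.28e-10). In the difference between the Srci1 effects in TH17 and Treg cultures, 7 of the 10 partners were higher and 2 lower.

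Among 11 genes linked to IRF4 in T cells, 5 were higher and 4 lower in the knockout. Slc2a1, the glucose transporter GLUT1, was 6.23-fold lower (23.5 against 146.1 TPM, limma adjusted p = 2.73e-13), and Pdcd1, which encodes the inhibitory receptor PD-1, was 4.7-fold higher (117.6 against 25.0 TPM, limma adjusted p = 4.99e-11). Srci1 in TH17 cultures gave 5 higher (3 without TH17 DMSO replicate 3) and 4 lower, or 3 and 5 under median-of-ratios scaling. Pdcd1 was then 2.55-fold lower (limma adjusted p = 1.1e-07) and Slc2a1 was 1.43-fold lower (limma adjusted p = 1.13e-05). In Treg cultures Srci1 lowered 6 and raised 2, with Slc2a1 2.2-fold lower (limma adjusted p = 9.7e-09). Between culture types in DMSO 6 were higher and 5 lower in Treg cells.

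Maf encodes the large MAF protein c-MAF, which TH17 and follicular helper cells use to drive IL-21 and IL-10. Its wild-type TH17 DMSO libraries held 81.9, 83.53 and 73.19 TPM and its knockout libraries 21.85, 25.16 and 19.95 TPM. The groups did not overlap, and Maf was 3.56-fold lower without STAT3 (log2 difference −1.79, SE 0.095, limma adjusted p = 1.98e-09). With Srci1 the TH17 libraries held 86.3, 90.92 and 85.0 TPM. All 3 lay above all 3 DMSO libraries, but the difference of 0.14 (95% confidence interval −0.07 to 0.34, limma adjusted p = 0.273) was below the median of all genes and became −0.13 (adjusted p = 0.193) under median-of-ratios scaling. Maf stayed 3.92-fold above the knockout with Srci1 (limma adjusted p = 9.79e-10), one of 4 of the 5 genes that were higher in the Srci1 than in the knockout TH17 libraries, where 49.1% of all genes were called (30.6% higher and 18.4% lower).

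Treg libraries held little Maf, at 3.37, 3.51 and 3.96 TPM in DMSO and 2.36, 2.27 and 2.46 TPM with Srci1. Maf was 22.0-fold lower in Treg than in TH17 cultures (log2 difference −4.13, SE 0.095, limma adjusted p = 1.14e-12), and Srci1 lowered it by 1.53-fold (log2 difference −0.45, SE 0.095, limma adjusted p = 0.00309) with no overlap. The effect of Srci1 in TH17 cultures minus that in Treg cultures was 0.59 (95% confidence interval 0.3 to 0.88, limma adjusted p = 0.00985). The knockout cells, at a mean of 22.3 TPM, still had 6.18-fold more Maf than Treg cells in DMSO (limma adjusted p = 2.61e-10). The order was thus TH17 Srci1 and TH17 DMSO together, then the knockout, Treg DMSO and Treg Srci1.

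A gene on the opposite strand, Gm15655, overlaps Maf, and the strand setting of the counting is not given in the sources used here. Its mean was 50.4 TPM in TH17 DMSO, 63.0 TPM in TH17 Srci1, 10.8 TPM in the knockout, 2.57 TPM in Treg DMSO and 1.61 TPM in Treg Srci1, the same order as Maf. Reads of the 2 genes cannot be told apart without strand, so the level of Maf is uncertain to that extent. For Ahr the overlapping Gm48236 reached at most 0.66 TPM, those of Rora and Runx1 were listed at 0 in all libraries, and Irf4 had none.

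The small MAF proteins and the CNC factors that pair with them share DNA sites with c-MAF, and 6 of 10 such genes were tested. In the knockout 4 were lower and 1 higher. Mafg was 2.24-fold lower (10.1 against 22.7 TPM, limma adjusted p = 1.72e-05), Maff 2.45-fold lower (limma adjusted p = 6.71e-05) and Nfe2l2, the oxidative stress factor NRF2, 1.61-fold lower (limma adjusted p = 2.67e-05). TH17 cultures with Srci1 had 3 of the 6 higher and 1 lower, or 2 and 1 under median-of-ratios scaling. Nfe2l2 was 1.39-fold higher (limma adjusted p = 0.00114) and Maff 1.69-fold lower (limma adjusted p = 0.00685). With Srci1 in Treg cultures 2 were lower, Maff by 2.72-fold (limma adjusted p = 0.000153) and Mafk by 1.19-fold (limma adjusted p = 0.0405, lost in 5 of 6 fits with 1 library left out). Between culture types 2 were higher and 1 lower in Treg cells, or 2 and 3 under median-of-ratios scaling.

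Of 8 genes linked to MAF in T cells, 5 were lower and 1 higher in the knockout, with a median of −1.45. Il21, the cytokine that sustains TH17 and follicular cells, had 205.3 TPM in the wild type and was listed at 0 in the 3 knockout libraries (limma adjusted p = 4.43e-14). Il22 fell from 5.68 to 0.0267 TPM (limma adjusted p = 7.85e-09) and Il10 from 5.11 to 0.697 TPM (limma adjusted p = 2.86e-07), while Lag3, an inhibitory receptor, rose from 36.0 to 61.0 TPM (limma adjusted p = 1.37e-05). Although Maf was not called with Srci1 in TH17 cultures, 4 of these 8 fell and 2 rose, or 4 and 1 under median-of-ratios scaling. Il21 was 3.77-fold lower at 54.4 TPM (limma adjusted p = 2.68e-07), Lag3 was 2.8-fold lower (limma adjusted p = 1.2e-07) and Il22 was 2.21-fold lower (limma adjusted p = 0.000586), while Il9 was 6.78-fold higher at 44.7 TPM (limma adjusted p = 2.83e-05). With Srci1 in Treg cultures 3 were lower and none was higher, Lag3 by 5.48-fold (limma adjusted p = 2.77e-09). Between the culture types 5 were lower and 1 higher in Treg cells, Il21 by 218-fold at 0.94 TPM (limma adjusted p = 2.23e-13) and Il10 by 21.3-fold at 0.24 TPM (limma adjusted p = 4.24e-08).

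Ahr encodes the aryl hydrocarbon receptor, which waits in the cytoplasm with HSP90, enters the nucleus when it binds a ligand and pairs there with ARNT. Its wild-type TH17 DMSO libraries held 6.36, 6.45 and 4.51 TPM and the Srci1 libraries 16.16, 13.64 and 14.99 TPM. Every Srci1 library lay above every library of the other groups, and Ahr was 2.59-fold higher than in DMSO (log2 difference 1.24, SE 0.16, limma adjusted p = 5.23e-05). In the knockout, Ahr was at 3.35, 5.34 and 4.12 TPM and overlapped with the wild type. The difference of −0.37 (95% confidence interval −0.71 to −0.02, limma adjusted p = 0.0743) did not pass the threshold, although it did under median-of-ratios scaling (adjusted p = 0.00633) and without knockout replicate 2 (adjusted p = 0.0229) or TH17 DMSO replicate 3 (adjusted p = 0.0183).

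Ahr was low in Treg cultures, at 0.49, 0.28 and 0.47 TPM in DMSO and 0.95, 0.87 and 1.13 TPM with Srci1. It passed the filter on low values through the TH17 groups. It was 14.0-fold lower in Treg than in TH17 DMSO cultures (log2 difference −2.25, SE 0.16, limma adjusted p = 7.73e-08, and −3.53 with a pseudocount of 0.1). The 2.38-fold higher level with Srci1 in Treg cultures (log2 difference 0.49, SE 0.16, limma adjusted p = 0.0369) lost its call in each of the 6 fits with 1 library left out (adjusted p between 0.0594 and 0.125), with no filter on low values (adjusted p = 0.0655) and with the replicate number as a block (adjusted p = 0.0585). With a pseudocount of 0.1 the log2 difference was 1.1 and called (adjusted p = 0.00357). On the log2(TPM + 1) scale the effect of Srci1 was 0.75 larger in TH17 than in Treg cultures (95% confidence interval 0.27 to 1.24, limma adjusted p = 0.0411). That difference between effects was 0.27 with a pseudocount of 0.1 (adjusted p = 0.644), and the folds of the means, 2.59 and 2.38, were close. The knockout cells kept 10.3-fold more Ahr than Treg DMSO cells (limma adjusted p = 4.83e-07) and also lay above Treg Srci1 cells (limma adjusted p = 1.05e-05), so the order was TH17 Srci1, then TH17 DMSO and the knockout, then Treg Srci1 and Treg DMSO.

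The genes around AHR moved in both directions. In the knockout, of 13 genes tested among 16 chaperones, partners and targets, 5 were higher (3 without TH17 DMSO replicate 3) and 6 lower, or 3 and 6 under median-of-ratios scaling. Cyp1a1, the detoxifying enzyme that is the classic AHR target, stood at 16.14, 17.08 and 16.19 TPM in the knockout against 1.48, 1.33 and 1.04 TPM in the wild type, 12.8-fold higher (log2 difference 2.94, SE 0.12, limma adjusted p = 9.6e-11). Entpd1, the ectoenzyme CD39, was 4.32-fold higher (5.63 against 1.3 TPM, limma adjusted p = 1.1e-06). Gpr15, a gut homing receptor under AHR control, was 6.35-fold lower (6.11 against 38.8 TPM, limma adjusted p = 6.67e-10) and Asb2, a ubiquitin ligase subunit, was 6.99-fold lower (0.607 against 4.24 TPM, limma adjusted p = 4.21e-07). Ahrr, the AHR repressor, had 1.96, 13.44 and 2.06 TPM in the knockout against 2.02, 1.34 and 0.77 TPM, so the libraries overlapped and 1 stood apart (limma adjusted p = 0.0495). The call was lost without knockout replicate 2 (adjusted p = 0.159) and without TH17 DMSO replicate 2 (adjusted p = 0.0924) or 3 (adjusted p = 0.15).

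With Srci1 in TH17 cultures 8 of the 13 were higher and 1 lower, with a median of 0.3 against 0.213 for all genes, and under median-of-ratios scaling 5 were higher and 2 lower. Arnt2, a relative of the AHR partner ARNT, rose from 1.32, 0.53 and 0.49 TPM to 7.49, 6.93 and 7.1 TPM, 9.2-fold (log2 difference 2.23, SE 0.16, limma adjusted p = 2.3e-07). In the other 3 groups Arnt2 was at 0.03 TPM or less in every library, and it passed the filter on low values only through the TH17 Srci1 group. Gpr15 was 2.54-fold higher at 98.7 TPM (limma adjusted p = 1.99e-06) and Cyp1a1 2.98-fold higher at 3.83 TPM (limma adjusted p = 1.05e-05). Arnt itself was 1.39-fold higher (limma adjusted p = 0.0171), a call lost under median-of-ratios scaling (adjusted p = 0.129) and without TH17 DMSO replicate 3 (adjusted p = 0.0723) or TH17 Srci1 replicate 1 (adjusted p = 0.0551) or 3 (adjusted p = 0.06). That call was also lost with only the compared groups in the model (adjusted p = 0.0588). The 1 that was lower was Asb2, named after its value was seen, at 1.98 against 4.24 TPM (limma adjusted p = 0.000786). Cyp1a1 and Gpr15 separated the Srci1 and knockout TH17 cultures in opposite directions, Cyp1a1 being 4.3-fold lower (limma adjusted p = 1.22e-08) and Gpr15 16.2-fold higher (limma adjusted p = 1.02e-11) with Srci1.

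In Treg cultures Srci1 raised 3 of the 13 and lowered 2. Nqo1, a quinone reductase that AHR and NRF2 both induce, was 4.25-fold higher at 2.99 TPM (limma adjusted p = 0.000939), while Asb2 was 6.44-fold lower at 0.527 TPM (limma adjusted p = 6.41e-06). Treg DMSO cultures held 0.127 TPM of Gpr15 and 0.0533 TPM of Cyp1a1, and against TH17 DMSO cultures 4 of the 13 were higher and 4 lower, or 2 and 5 under median-of-ratios scaling. Entpd1 was 4.21-fold higher in Treg cells at 5.48 TPM (limma adjusted p = 2.14e-06).

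**Figure D4:**
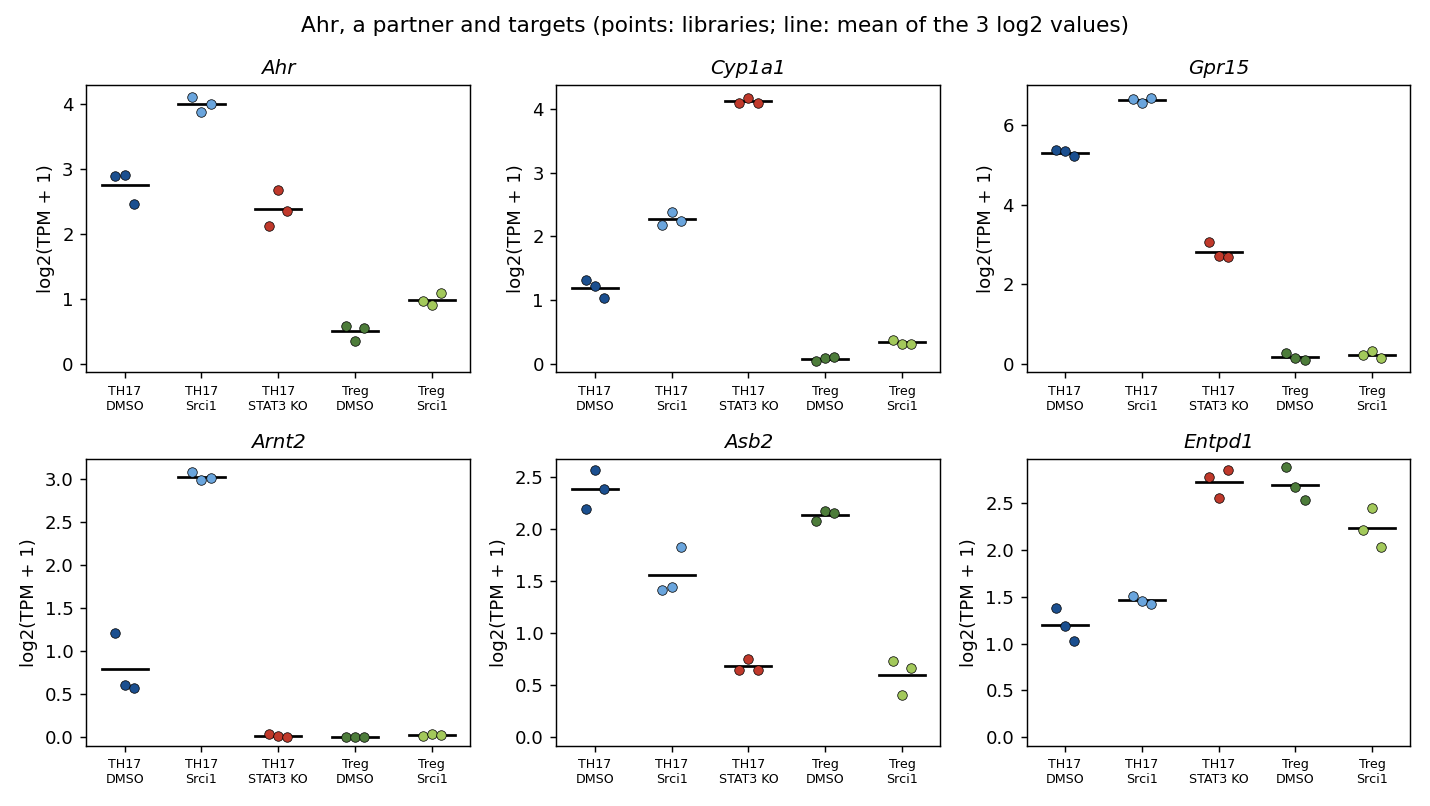
log2(TPM + 1) of Ahr, its targets Cyp1a1, Gpr15, Asb2 and Entpd1, and the ARNT relative Arnt2 in each library (vertical axis), by group (horizontal axis). Points are libraries and lines are means of the 3 log2 values. Cyp1a1 is highest in the STAT3 knockout, at 16.14 to 17.08 TPM, while Ahr, Gpr15 and Arnt2 are highest with Srci1 in TH17 cultures.

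Rora encodes the nuclear receptor RORα. Its wild-type TH17 DMSO libraries held 8.89, 7.41 and 4.05 TPM, the widest spread relative to the mean of the 5 genes in that group, and its knockout libraries 1.34, 2.48 and 1.41 TPM. The groups did not overlap, and Rora was 3.89-fold lower without STAT3 (log2 difference −1.47, SE 0.23, limma adjusted p = 0.000132). With Srci1 the TH17 libraries held 5.24, 4.77 and 4.89 TPM, all within the range of the DMSO libraries. The difference of −0.33 (95% confidence interval −0.83 to 0.18, limma adjusted p = 0.286) was not called. It was called at −0.61 without TH17 DMSO replicate 3 (adjusted p = 0.0346) and at −0.56 under median-of-ratios scaling (adjusted p = 0.0483). Rora with Srci1 was 2.85-fold above the knockout (limma adjusted p = 0.00112).

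Treg libraries held 1.24, 2.15 and 2.06 TPM of Rora in DMSO and 1.47, 1.64 and 2.11 TPM with Srci1, a difference of −0.03 (95% confidence interval −0.54 to 0.48, limma adjusted p = 0.945). Rora was 3.73-fold lower in Treg than in TH17 DMSO cultures (limma adjusted p = 0.000239), and TH17 Srci1 cultures also lay above Treg DMSO cultures (limma adjusted p = 0.00221). The means of Treg DMSO, the knockout and Treg Srci1 lay between 1.74 and 1.82 TPM and did not differ beyond their spread (limma adjusted p of neighbours 0.897 and 0.965).

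RORα competes with the REV-ERB receptors for sites in clock genes, and 14 of 17 such genes were tested. Rorb, the neuronal relative of Rora, was listed at 0 in all libraries. In the knockout 4 clock genes were higher and 5 lower. Nr1d1, which encodes REV-ERBα, fell with Rora from 3.58 to 1.03 TPM (limma adjusted p = 4.97e-06), as did Cry1 from 21.6 to 12.9 TPM (limma adjusted p = 1.81e-05) and Nfil3, a repressor that links the clock to TH17 cells, from 64.5 to 11.3 TPM (limma adjusted p = 7.16e-12). Dbp, a clock output factor that opposes Nfil3, rose 4.18-fold to 35.6 TPM (limma adjusted p = 5.93e-08). Between the culture types 5 were higher and 4 lower in Treg cells, with Nr1d1 4.71-fold lower (limma adjusted p = 1.46e-06) and Arntl, the clock activator BMAL1, 1.69-fold lower (limma adjusted p = 0.000735). Srci1 lowered 2 and raised none in TH17 cultures, and lowered 3 and raised none in Treg cultures. Nfil3 was 1.81-fold lower in the first (limma adjusted p = 1.81e-06) and 3.26-fold lower in the second (limma adjusted p = 4.76e-09).

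Runx1 encodes a RUNT domain factor that T cells use from the thymus onward. It was the 1 gene of the 5 that rose without STAT3, from 17.66, 18.65 and 16.78 TPM in wild-type TH17 DMSO libraries to 37.98, 49.17 and 66.3 TPM, a 2.89-fold difference with no overlap (log2 difference 1.45, SE 0.22, limma adjusted p = 8.6e-05). With Srci1 the TH17 libraries held 27.96, 25.65 and 22.48 TPM, again all above the DMSO libraries. That difference was 0.49 (95% confidence interval 0.02 to 0.96, limma adjusted p = 0.09) and not called, although it was called when only the compared groups entered the model (adjusted p = 0.0182). Runx1 was 2.02-fold lower with Srci1 than in the knockout (limma adjusted p = 0.00257).

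Treg libraries held 23.7, 18.92 and 23.28 TPM of Runx1 in DMSO and 39.99, 22.31 and 41.93 TPM with Srci1. Replicate 2 with Srci1 lay within the DMSO range while the others lay above it. The difference of 0.59 (95% confidence interval 0.12 to 1.07, limma adjusted p = 0.0608) was not called, and it was 0.88 and called without that library (adjusted p = 0.00483). Treg and TH17 DMSO cultures differed by 0.29 (95% confidence interval −0.18 to 0.76, limma adjusted p = 0.305). Below the knockout the order of means was Treg Srci1, TH17 Srci1, Treg DMSO and TH17 DMSO. No difference between neighbours among these 4 was called (limma adjusted p of 0.184, 0.529 and 0.305), although every Treg DMSO library lay above every TH17 DMSO library. The knockout lay above Treg Srci1 with overlapping libraries (limma adjusted p = 0.0499), a call lost without knockout replicate 2 (adjusted p = 0.0827) or 3 (adjusted p = 0.222), without Treg Srci1 replicate 2 (adjusted p = 0.243) and with the replicate number as a block (adjusted p = 0.0535).

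The other RUNX genes did not rise with Runx1 in the knockout. Runx3, the factor of cytotoxic and TH1 cells, was 2.53-fold lower (17.8 against 45.0 TPM, limma adjusted p = 3.62e-07) and Runx2 2.18-fold lower (3.04 against 6.64 TPM, limma adjusted p = 0.00291). Of 9 family members and cofactors tested among 11, 5 were lower and 2 higher, with a median of −0.88. Tle1, a Groucho corepressor, was 5.04-fold lower (2.68 against 13.5 TPM, limma adjusted p = 1.78e-08) and its relative Tle4 was 2.18-fold higher (limma adjusted p = 7.48e-05). Runx1 thus made up 70.3% ± 5.94 of the summed TPM of the 3 RUNX genes in the knockout, 25.8% ± 2.66 in TH17 DMSO, 31.5% ± 2.99 in TH17 Srci1, 41.9% ± 3.62 in Treg DMSO and 53.3% ± 9.06 in Treg Srci1 (SD, n = 3). In this share the knockout libraries lay above all others.

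With Srci1 in TH17 cultures 4 of the 9 were higher and 1 lower, or 3 and 3 under median-of-ratios scaling. Tle4 was 1.95-fold higher (limma adjusted p = 0.000557) and Runx2 1.91-fold lower (limma adjusted p = 0.0122, and 0.0536 without TH17 Srci1 replicate 3). With Srci1 in Treg cultures 1 was higher and none lower, or 1 and 2 under median-of-ratios scaling. The higher one was Cbfb, the subunit that stabilises RUNX proteins on DNA, at 124.2 against 87.4 TPM (limma adjusted p = 0.0126). Against TH17 cultures, 4 of the 9 were lower and 2 higher in Treg cells, with Runx3 1.71-fold lower (limma adjusted p = 0.000104).

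Among 10 genes linked to RUNX factors in T cells, 6 were higher and 4 lower in the knockout. Itgae, the CD103 integrin chain of tissue-resident and regulatory T cells, rose from 1.06 to 124.2 TPM (limma adjusted p = 5.69e-13), Foxp3 from 11.7 to 204.6 TPM (limma adjusted p = 9.26e-13) and Tbx21, the TH1 factor T-bet, from 0.603 to 21.9 TPM (limma adjusted p = 1.04e-11), while Il2 fell 9.69-fold (limma adjusted p = 2.48e-09). Srci1 in TH17 cultures gave 5 higher and 2 lower, or 3 and 2 under median-of-ratios scaling, with Foxp3 17.4-fold higher at 203.6 TPM (limma adjusted p = 1.17e-11). In Treg cultures Srci1 gave 3 higher (1 without Treg DMSO replicate 2 or Treg Srci1 replicate 3) and 4 lower, or 3 and 6 under median-of-ratios scaling. Foxp3 was 2.07-fold higher (limma adjusted p = 6.12e-06) and Tbx21 3.8-fold lower (limma adjusted p = 1.71e-07). Treg against TH17 cultures gave 5 higher and 2 lower.

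Of a wider set of 15 TH17-promoting factors, 10 were lower in the knockout, as Irf4, Maf and Rora were, 2 were higher and 3 were not called, with a median log2 difference of −1.62. Satb1, a chromatin organiser, was 14.4-fold lower (27.3 against 391.4 TPM, limma adjusted p = 1.89e-12) and Bhlhe40, a repressor of IL-10, 4.46-fold lower (limma adjusted p = 1.33e-11). Stat3, the deleted gene, is among the 10. In TH17 cultures with Srci1 this list gave 5 higher and 4 lower (2 lower without TH17 Srci1 replicate 2), 3 and 7 under median-of-ratios scaling, and 4 and 4 under rescaling. Ikzf3, which encodes Aiolos, was 3.38-fold higher at 70.3 TPM (limma adjusted p = 1.54e-05), while Bhlhe40 was 1.57-fold lower (limma adjusted p = 1.33e-05). Set directly against the knockout, the Srci1 TH17 cultures had 11 of these 15 higher and 1 lower, Satb1 by 16.7-fold (limma adjusted p = 1.77e-12) and Batf by 2.56-fold (limma adjusted p = 7.96e-10). Srci1 in Treg cultures gave 4 higher and 6 lower, the 4 becoming 2 without any of Treg DMSO replicates 1, 2 and 3 and Treg Srci1 replicates 2 and 3. Treg against TH17 cultures gave 1 higher and 10 lower, or 1 and 12 under median-of-ratios scaling. The 1 that was higher in Treg cells was Rel, an NF-κB subunit, at 34.4 against 7.6 TPM (limma adjusted p = 4.41e-08).

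Of 18 factors that restrain TH17 cells or set a rival lineage, 10 were higher and 3 lower in the knockout (5 lower without TH17 DMSO replicate 3 and 6 lower under median-of-ratios scaling). Besides Foxp3 and Tbx21, Klf2, a factor of quiescence and recirculation, was 3.23-fold higher (limma adjusted p = 7.28e-09) and Id3, an inhibitor of E proteins, 2.15-fold higher (limma adjusted p = 5.57e-07). Srci1 gave 7 higher and 4 lower in TH17 cultures (5 and 5 under median-of-ratios scaling) and 7 higher and 6 lower in Treg cultures (5 and 7 under that scaling, 6 and 7 when TPM was rescaled leaving out the genes of ribosomal proteins and mitochondria). Treg against TH17 cultures gave 10 higher and 3 lower (6 lower without TH17 DMSO replicate 3, and 9 and 6 under median-of-ratios scaling). Of all genes tested, 30.9% were higher and 18.9% lower in the knockout. With Srci1 33.8% were higher and 7.08% lower in TH17 cultures, and 17.1% and 10% in Treg cultures. Between culture types 32.3% were higher and 12.5% lower in Treg cells. The 11 TH17 effector genes were lower in 10 and higher in 1 in the knockout, lower in 9 and higher in 1 with Srci1 in TH17 cultures, lower in 5 with Srci1 in Treg cultures and lower in 10 in Treg against TH17 cultures. Il17a was 132-fold lower in the knockout (limma adjusted p = 2.8e-14) and 33.2-fold lower with Srci1 (limma adjusted p = 8.08e-12), and Il17f was 134-fold lower (limma adjusted p = 1.46e-13) and 4.8-fold lower (limma adjusted p = 7.64e-08).

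Markers of other cells moved with some of these groups. The 7 CD8 T and NK cell markers summed to 90.1 to 118.4 TPM with Srci1 in TH17 cultures, 49.7 to 52.7 TPM in TH17 DMSO, 19.0 to 23.1 TPM in the knockout, 24.9 to 27.0 TPM in Treg DMSO and 10.9 to 12.1 TPM with Srci1 in Treg cultures, and Ncr1 was at 0 in all 15 libraries. Of the 5 that could be tested, 3 were higher and none was lower with Srci1 in TH17 cultures. In the knockout 2 were higher and 1 was lower, although the sum was lower. With Srci1 in Treg cultures 1 was higher and 2 were lower. The 6 gamma delta T cell markers summed to 74.7 to 86.9 TPM with Srci1 in Treg cultures against 20.4 to 24.9 TPM in Treg DMSO, and to 6.54 to 18.1 TPM in the 9 TH17 libraries. Of the 4 that could be tested, Tcrg-C2 and Tcrg-C1 were higher with Srci1 in Treg cultures and none was lower. Trdc and Scart2 were not called, and Blk was at 0 in every Treg Srci1 library. The 7 ILC2 and mast cell markers summed to 28.2 to 44.9 TPM with Srci1 in TH17 cultures and 54.2 to 69.1 TPM with Srci1 in Treg cultures, against 4.31 to 5.92 and 13.7 to 21.9 TPM in DMSO and 17.9 to 22.2 TPM in the knockout, and Cpa3, Fcer1a and Mcpt4 were at 0 in all 15 libraries. Only 3 of these could be tested. With Srci1, 2 were higher and none was lower in each culture type, and all 3 were higher in the knockout than in TH17 DMSO. With Srci1, both B cell and myeloid sums lay at or below 5.09 TPM. The part of other cells in the values of Ahr, Maf, Irf4, Rora and Runx1 was not tested.

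The genes whose pattern was most like each factor were ranked by Pearson r on log2(TPM + 1) over the 15 libraries among 9326 genes. The libraries fall into 5 groups, so r mainly describes the order of group means. For Rora they were Il23r (r = 0.958), the IL-23 receptor chain, at 7.29 TPM in TH17 DMSO and 3.87 TPM with Srci1 and at most 0.0767 TPM as a mean elsewhere, Lgr4 (r = 0.955), an R-spondin receptor, and Gja5 (r = 0.951), a gap junction protein. For Maf they were Cd101 (r = 0.99), an immunoglobulin family surface protein, Armcx2 (r = 0.989) and Ust (r = 0.983), a sulfotransferase. For Irf4 they were Ptgfrn (r = 0.99), a tetraspanin partner, and the glycolytic enzymes Pgam1 (r = 0.985) and Pfkl (r = 0.983), the last at 122.8 TPM in TH17 DMSO and 33.8 TPM in the knockout. For Ahr they were Klhl6 (r = 0.982), Tnfrsf23 (r = 0.974), a decoy TRAIL receptor, and Kremen1 (r = 0.973), a Dickkopf receptor. Runx1 had the least close matches, Bloc1s5 (r = 0.917), Scp2 (r = 0.907), a sterol carrier, and Nme3 (r = 0.885).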

How the data were processed

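Poly(A) RNA of CD4 T cells was sequenced in 15 libraries, and the authors deposited 1 table of TPM values, with 15 columns that each matched a library by name and 0 that did not. GRCm38, RSEM 1.3.3 and STAR 2.7.9a are named, per the submitters' processing notes, with no role. Annotation release, strand setting and filters: not given in the sources used here. TPM hides the depth per library, so neither counting intervals nor a detection floor were computed. Groups came from the labels. limma 3.58.1 in R 4.3.3 was run with a variance trend on log2(TPM + 1) for the 12800 genes that reached 1 TPM in 3 or more libraries, with a mean for each of the 5 groups (10 residual degrees of freedom), and p-values were adjusted over all genes tested. The fit was tested on simulated data.

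The 5 genes and the gene lists were chosen with earlier results of these data known. The named genes are the 5 factors in every comparison, up to 4 genes of a list with the smallest adjusted p, relatives and direct partners by their levels, and the 3 genes most alike to each factor among named protein-coding genes with a group mean of at least 5 TPM. The lists are TH17-promoting factors, factors that restrain TH17 cells or set a rival lineage, clock genes, AHR genes, MAF and IRF and RUNX relatives and partners, genes linked to MAF, IRF4 or RUNX, TH17 effectors, and markers of CD4 T, B, myeloid, CD8 T and NK, gamma delta T, and ILC2 and mast cells. Alternatives were a pseudocount of 0.1, no filter (19683 genes), a stricter cutoff, 5 TPM (10041 genes), scaling by median of ratios, TPM rescaled after removing 425 genes and pseudogenes of ribosomal proteins and mitochondria matched by symbol, the replicate number as a block, only the compared groups in the model, and each library left out. Symbols were at hand for 55154 IDs. Some genes chosen by the rule for named genes are not given by name.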

Additional observations from a re-analysis of the deposited data

Results flagged for a closer look

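The Srci1 effect on Ahr was 0.75 larger in TH17 than in Treg cultures on the log2(TPM + 1) scale, by limma's interaction term (95% confidence interval 0.27 to 1.24, adjusted p = 0.0411). Ahr rose in both culture types, from a mean of 5.77 to 14.9 TPM and from 0.413 to 0.983 TPM, and the difference depends on the pseudocount, as it was 0.27 with a pseudocount of 0.1 (adjusted p = 0.644) and the folds of the means were 2.59 and 2.38. Ahr passed the filter on low values only through the TH17 groups. The call was also lost with no filter (adjusted p = 0.0716), after rescaling without the genes of ribosomal proteins and mitochondria (adjusted p = 0.107), with the replicate number as a block (adjusted p = 0.0671) and in 9 of 12 fits with 1 library left out.

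The Srci1 effect on Maf in TH17 cultures minus that in Treg cultures was 0.59 by the same term (95% confidence interval 0.3 to 0.88, adjusted p = 0.00985). Maf went from 79.5 to 87.4 TPM in TH17 cultures, a difference that was not called, and fell from 3.61 to 2.36 TPM in Treg cultures, where all 3 libraries with Srci1 lay below all 3 in DMSO.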

How the results depend on the processing

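Across the alternatives for the 5 genes and 6 comparisons, 380 of 419 values kept their direction and side of the threshold, 25 lost a call, 8 gained one and 6 changed sign. Counts of called genes stayed within 1.5 times in all 84 alternatives, but median-of-ratios scaling moved the share of calls that were higher from 82.7% to 50.2% with Srci1 in TH17 cultures, 62.1% to 50.3% in the knockout, 63.0% to 43.7% with Srci1 in Treg cultures, 72.0% to 49.2% between culture types, 79.2% to 61.6% in the interaction and 62.4% to 50.1% for Srci1 against the knockout; rescaling gave 72.1% in the first and 50.6% in the last.

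Under median-of-ratios scaling, with Srci1 in TH17 cultures, Rora was −0.56 (adjusted p = 0.0483) and Maf −0.13 (adjusted p = 0.193), and Ahr in the knockout was −0.48 (adjusted p = 0.00633). With only the compared groups, with Srci1 in TH17 cultures, Irf4 was −0.36 (adjusted p = 0.0676) and Runx1 0.49 (adjusted p = 0.0182), and Ahr in Treg cultures gave no value because it failed the filter there. The Ahr effect in Treg cultures was 0.49 with no filter (adjusted p = 0.0655), and the Ahr interaction was 0.27 with a pseudocount of 0.1 (adjusted p = 0.644), 0.75 with no filter (adjusted p = 0.0716) and 0.62 after rescaling (adjusted p = 0.107). The cause was not tested.

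With the replicate number as a block, Ahr was 0.49 with Srci1 in Treg cultures (adjusted p = 0.0585) and 0.75 in the interaction (adjusted p = 0.0671), and no other call for the 5 genes in these 6 comparisons changed. The numbers did not pair the libraries: same-numbered deviations correlated at −0.171 to 0.128. In 30 cases a library was set against the 3 libraries of another group, and in 11 of these its own number correlated best.

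With 1 library left out, the values ranged as follows for the results whose call or sign changed. With Srci1 in TH17 cultures Rora ranged from −0.61 to −0.13 and Irf4 from −0.52 to −0.25. In the knockout Ahr ranged from −0.51 to −0.24. With Srci1 in Treg cultures Rora ranged from −0.19 to 0.059, changing sign without Treg DMSO replicate 2 (0.059) or 3 (0.038) or Treg Srci1 replicate 1 (0.041), Ahr from 0.42 to 0.53 and Runx1 from 0.44 to 0.88. In the interaction Ahr ranged from 0.61 to 0.83, with the call lost in 9 of 12 fits, Irf4 from 0.27 to 0.54, called without TH17 DMSO replicate 1 (adjusted p = 0.0158), and Runx1 from −0.38 to 0.056, changing sign without Treg Srci1 replicate 1 (0.023) or 3 (0.056).

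Of 1930 values for other named genes and for the other pairs of groups, 1885 were unchanged in direction and call. The 11 that changed sign were all Rora in the knockout against Treg cultures, where no difference was called. Against Treg DMSO it was 0.0026 under median-of-ratios scaling, 0.012 after rescaling, −0.23 to 0.057 with 1 library left out, including 0.035 without knockout replicate 3, and 0.043 and 0.022 without Treg DMSO replicates 2 and 3. Against Treg Srci1 it was 0.11 and 0.083 under those scalings, and with 1 library left out −0.2 to 0.087, including 0.065 without knockout replicate 3 and 0.079 without Treg Srci1 replicate 3.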
